A study of Mus musculus with 6 samples.

Results

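The cytosolic ribosomal protein genes encode the proteins of the 40S and 60S subunits of the ribosome that works outside mitochondria. They were taken by gene name (Rps or Rpl and a number, the stalk genes Rplp0 to Rplp2, and Rpsa), without pseudogene names and without the Rps6k kinases. The table of 20175 genes held 85 such names. Of these, 83 had a mean of at least 10 normalised counts over the 6 libraries and are described here, while Rps3a2 (mean 3.47) and Rps3a3 (mean 6.6) lay below that level. A core of 77 genes comprised 31 genes of the small subunit and 46 of the large subunit, including the 3 stalk genes. The other 6 were paralogs of core genes: Rpl22l1, Rps27l, Rpl7l1, Rpl3l, Rps4l and Rpl6l. GENCODE M21 types Rps4l and Rpl6l as processed pseudogenes, although their names carry no pseudogene mark.

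Each ribosome carries a single copy of most of these proteins, so cells make them in matched amounts, and surplus protein is degraded. Their mRNAs carry a 5′ terminal oligopyrimidine (TOP) tract, a run of C and T that begins with C at the first transcribed base, through which mTOR and the RNA-binding protein Larp1 set their translation. Transcription of the genes follows cell growth and Myc family factors, and in a developing retina growing progenitors and postmitotic neurons both depend on them.

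RNA was sequenced from poly-A selected libraries of mouse retina on postnatal day 2, from 3 control samples and 3 samples of the genotype Zeb2 loxp/loxp αCre. Zeb2 encodes a zinc finger transcription factor, and αCre is, as background, a Cre transgene under a Pax6 enhancer that is active in progenitors of the peripheral retina, so cells of the central retina are expected to keep the gene. The sources used here leave out the alleles of the controls, the strain and the sex of the animals. The labels do not tie the samples to separate animals. Xist and Y-linked transcripts, given below, differ between libraries within both groups, so neither group comes from a single animal. Each p-value reflects variation among these samples, part of which may be technical.

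The 40 bases around annotated start sites are shown for 8 members, because mRNAs of these genes are known for an oligopyrimidine run there. Not every member has a long run at the annotated start, and start sites were not measured in these data. Each window runs from 20 bases before to 20 bases from the RefSeq start site on GRCm38.p6, and capitals mark the longest run of C and T that begins with C and whose first base lies between 10 bases before and 20 bases after the start. Rps6 and Rpl28 have a run across the start, as do Rps10 and Rpl31, and the run of Rpl38 begins at the annotated start. Rps10, Rps12, Rpl31, Rps4x and Rpl22l1 were picked by their values in these libraries, and Rpl38 is a member with a known mouse mutant. Of the picked members, only Rps10 had groups that did not overlap.
Rps6: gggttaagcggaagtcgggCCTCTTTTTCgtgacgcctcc
Rpl28: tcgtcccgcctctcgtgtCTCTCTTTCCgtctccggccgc
Rpl38: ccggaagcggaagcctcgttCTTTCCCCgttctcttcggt
Rps10: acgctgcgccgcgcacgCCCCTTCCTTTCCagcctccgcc
Rps12: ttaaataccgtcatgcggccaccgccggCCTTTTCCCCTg
Rpl31: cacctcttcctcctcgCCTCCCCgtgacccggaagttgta
Rps4x: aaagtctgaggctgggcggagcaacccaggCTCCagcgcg
Rpl22l1: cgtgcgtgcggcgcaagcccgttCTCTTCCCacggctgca
The windows lie at chr4:86857348-86857387 (minus strand, Rps6), chr7:4792945-4792984 (plus, Rpl28), chr11:114668560-114668599 (plus, Rpl38), chr17:27635225-27635264 (minus, Rps10), chr10:23787190-23787229 (minus, Rps12), chr1:39367831-39367870 (plus, Rpl31), chrX:102189372-102189411 (minus, Rps4x) and chr3:28805488-28805527 (plus, Rpl22l1). Within these limits the run had 13 bases in Rps10 and 4 bases in Rps4x. The window of Rpl31 also holds a longer run of C and T that begins further before the start and is not marked.

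RefSeq promoter sequence was used for 57 of the 77 core genes. Core genes on chromosome 18 were left out, a limit that was not set for all genes. A C-initiated pyrimidine run of at least 8 bases starting between 10 bases before and 20 bases after the start site was present in 43.9% of them, against 12.1% of all 27025 genes with a promoter. For runs of at least 5 bases the shares were 68.4% and 42.9%. The letters CTTTCC, some of which fall inside such runs, lay on the sense strand between 20 bases before and 50 bases after the start in 29.8% of the core genes and 3.79% of all genes. CCGGAAG, the letters bound by factors of the Ets family such as Gabpa, occurred on either strand of the 300-base promoter in 42.1% of core genes and 9.93% of all genes, and the windows of Rpl31 and Rpl38 printed above hold them. AAGATGG, the letters bound by Yy1, occurred on either strand of the same 300 bases in 15.8% and 7.28%, and the TATA-box letters TATAAA, on the sense strand within 50 bases of the start, in 7.02% and 4.05%. These are matches of letters and say nothing about which factors were bound.

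The libraries held 26041200 to 32614805 reads on genes, recovered from the deposited values. Zeb2 itself was counted at 5990, 6449 and 5917 in controls and 5581, 4274 and 5050 in mutants. All 3 mutants lay below all 3 controls, with a log2 fold change of -0.31 (SE 0.090, limma adjusted p = 0.129; exact permutation p = 0.1, the smallest that 3 against 3 can give). Over all 16064 genes tested, limma with Benjamini-Hochberg adjustment called 184 at an adjusted p under 0.05, which is 1.15%. Retinal markers were abundant in every library, with summed levels of 186883 to 198901 over 13 genes. Mesenchymal markers summed to 6407 and 2307 in mutants 1 and 2 and to 304 in mutant 3, against 270.5 to 863 in controls, and Gfap and the other astrocyte markers to 7699, 6022 and 2331, against 1931 to 2600.5. Lens markers ranged from 1026 to 7391 in controls and from 524 to 2800.2 in mutants. Xist and the Y-linked genes divided the libraries within both groups: control 1 and mutants 1 and 3 had Xist at 9.6, 10.6 and 5.1 normalised counts, and the other 3 libraries at 20450 to 23565.

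In control retina the 83 ribosomal protein genes together took 2.31%, 2.38% and 2.28% of all reads. To compare genes, normalised counts were divided by the length of an annotated transcript, since the core genes are short (median 729 bases, against 2695 bases over all genes tested). Per kb of transcript the core genes had a median of 9873 normalised counts. The quartiles lay at 7491 and 13361, a ratio of 1.78, and the highest and lowest gene differed 29.1 times. The median was 10724 for the small subunit, 8718 for the large subunit without the stalk and 18234 for the 3 stalk genes.

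Rps15 and Rps27 headed this order with 29866 and 28957 normalised counts per kb, and their control ranges overlapped. Rps14, the stalk gene Rplp1 and Rps29 came next, between 22746 and 21474. Of the stalk proteins, which form the arm that recruits elongation factors, P1 and P2 are present in more than a single copy per ribosome and P0 in a single copy. Rplp0, Rplp1 and Rplp2, which encode them, stood at 18234, 21977 and 17538. The lowest core genes were Rpl24 with 1027, Rps20 with 2151, Rpl5 with 2838, Rpl39 with 3154 and Rpl13a with 4154 per kb. For Rps20 the chosen annotated transcript is 3706 bases long, the longest of the core, and its count is 7971 before division, so its place in the order rests on that length. The place of Rpl5 likewise rests on a long transcript of 2045 bases, with a count of 5803 before division.

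**Figure D1:**
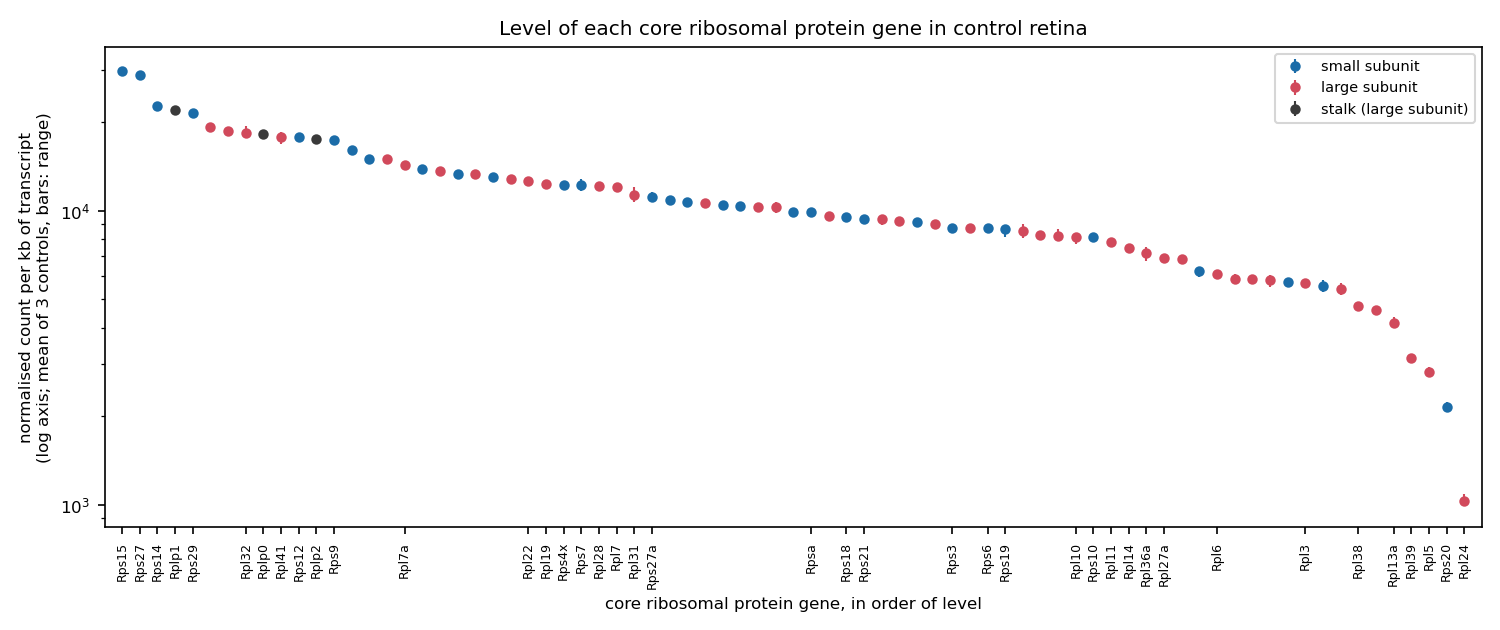
Normalised count per kb of transcript (log axis) for each of the 77 core ribosomal protein genes in control retina, in order of level, with the genes described in the text labelled. Points are means of 3 controls and bars their range. The quartiles lie at 7491 and 13361, with Rps15 and Rps27 highest and Rpl24 lowest.

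Between mutant and control retina no ribosomal protein gene passed the test. Of 83 members, 0 were higher and 0 lower at a limma adjusted p under 0.05, against 0.928% and 0.218% of all genes tested, 1.15% in all. Likewise 0 had an unadjusted p under 0.05, against 17.3% of all genes. On the recovered reads, 0 members passed with edgeR, which called 1.12% of genes, or with DESeq2, which called 5.66%. The median log2 fold change was -0.023 over the 83 members and -0.0067 over all genes tested. It was -0.028 in the small subunit, where 24 of 31 values lay below 0, and -0.0225 in the large subunit, where 28 of 46 did.

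Among the 77 core genes the log2 fold change ran from -0.13 (Rps12) to 0.17 (Rps4x), with a median size of 0.0325, against 0.102 over all genes. The 95% limma interval lay within a 1.2-fold difference in either direction for 73 of 77 core genes, and for 40.2% of all genes. The exceptions were Rpl31 and Rps12, whose intervals reached down to -0.34 and -0.27, and Rps4x and Rps14, whose intervals reached up to 0.35 and 0.28. All 77 lay within 1.3-fold, against 57.3% of all genes. Abundant genes are measured more precisely. The 7981 genes at or above the lowest core mean had a median standard error of 0.059, close to the 0.054 of the core and below the 0.086 of all genes, and a median size of 0.069. Of those 7981 genes, 0.977% were called.

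**Figure D2:**
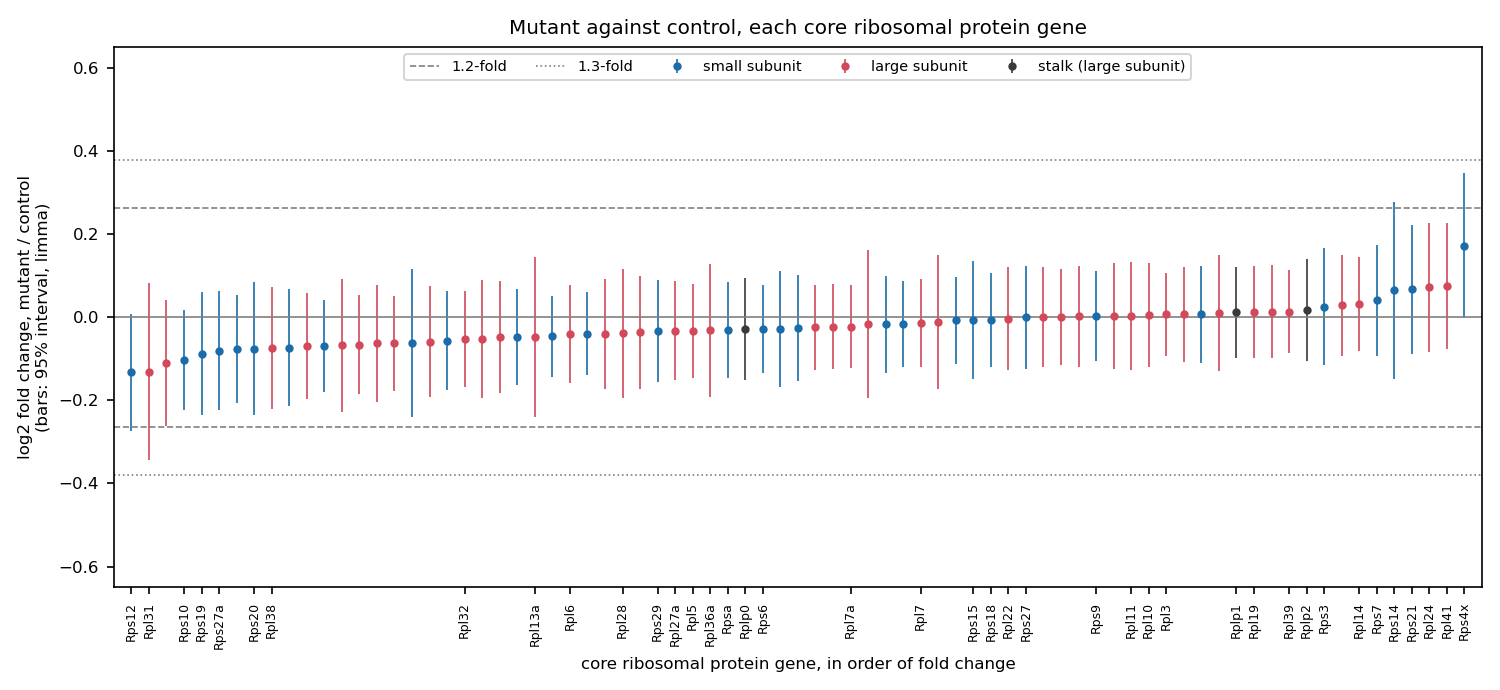
Log2 fold change (mutant over control) of each core ribosomal protein gene with its 95% limma interval, in order of size, with the genes described in the text labelled. Dashed lines mark 1.2-fold and dotted lines 1.3-fold. All 77 intervals lie inside the dotted lines, and those of Rpl31, Rps12, Rps14 and Rps4x cross a dashed line.

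Only Rps10 had 3 mutant values all on one side of the 3 control values. That is 1 of 83 members, or 1.205%, while 23.2% of all genes tested had groups that did not overlap. Among the 7981 genes of at least the lowest core mean the share was 25.9%.

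The members instead shared a course from library to library. On the log2 scale against the control mean, the median over the 77 core genes was -0.0041, 0.028 and -0.030 in controls 1 to 3. In the mutants it was 0.039, -0.021 and -0.095. Both subunits followed this course, with medians of -0.097 for the small and -0.092 for the large subunit in mutant 3, and the mutants enclosed the controls on both sides. The median over all genes tested stayed within 0.0031 of 0 in every library. The deposited values are scaled between libraries, which holds this median near 0 by design, so it is no separate result.

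Mutant 3 was the lowest of the 6 libraries for 59 of 77 core genes, and mutant 1 the highest for 36. In mutant 3, 72 core genes lay below the control mean. These counts restate the shared course of the core genes and are not separate observations. The same counts over all genes were not taken. Without mutants 1 and 2, the libraries with high mesenchymal and astrocyte markers, the median over the members was -0.089. This leaves mutant 3 alone against 3 controls, a lone sample assumed to vary as the controls do, and in that fit 0 members passed. Without mutant 3 the median was 0.016. Mutant 3 also had the lowest mitochondrially encoded transcripts, with a sum of 419422 over 7 genes, against 487096.5 to 641907 in the other libraries. The part of these transcripts and of the marker lists in the ribosomal protein values was not tested. In bulk tissue, fewer cells of a type and less RNA per cell cannot be told apart.

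**Figure D3:**
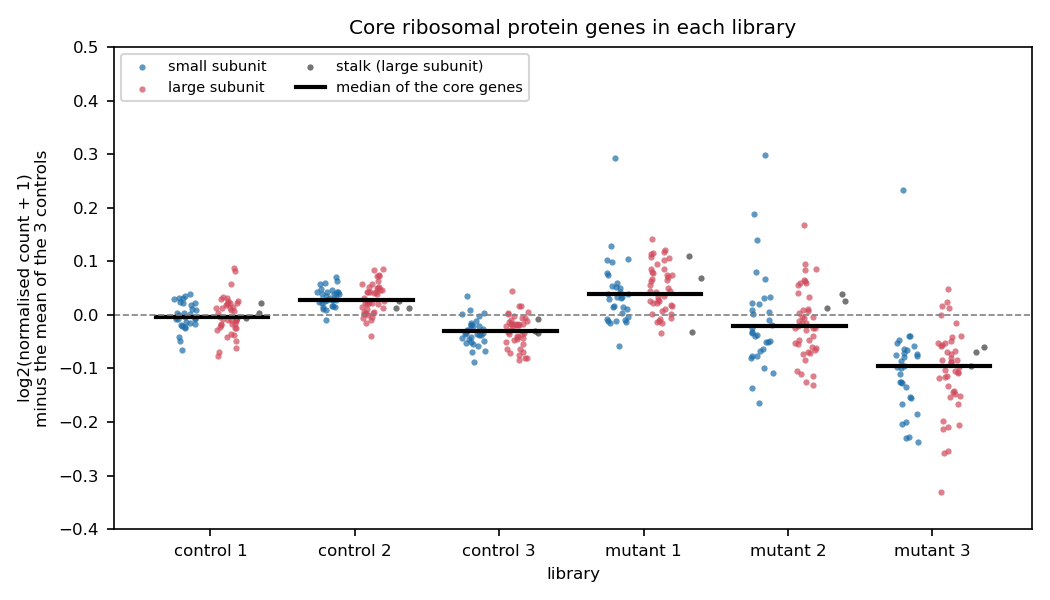
Log2(normalised count + 1) of each core ribosomal protein gene minus its mean over the 3 controls, by library. Points are genes, coloured by subunit, and black lines are medians over the 77 genes. The medians run from 0.039 in mutant 1 to -0.095 in mutant 3, and the points spread more widely in mutants than in controls.

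Single genes left the common course in the mutants but not in the controls. Of 462 values (77 genes in 6 libraries), 31 lay more than 0.1 from the median of the core in their library on the log2 scale. There were 0 in the 3 controls, 2 in mutant 1, 12 in mutant 2 and 17 in mutant 3. The control mean was the reference, so values of controls are held closer to 0 than those of mutants. The median coefficient of variation of the core genes was 2.73% among controls and 5.925% among mutants, while counting error alone gives 1.15%. Over all genes tested the values were 5.95% and 7.61%. In 51 of the 77 genes no library departed by more than 0.1.

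Among small subunit genes, Rps4x had the smallest p of all members. Rps4x encodes eS4 from the X chromosome (chrX:102184941-102189394, GRCm38). Its normalised counts were 12132, 12173.5 and 11541.5 in controls and 14631, 11869.6 and 14041 in mutants. Mutants 1 and 3 were above all controls, and mutant 2 lay among them, so the groups overlapped. The log2 fold change was 0.17 (SE 0.077, limma adjusted p = 0.297), and the values in mutants 3 and 1 stood 0.33 and 0.25 above the core median of their library. Mutants 1 and 3 are the mutant libraries with almost no Xist and with Y-linked transcripts, and their part in this result was not tested. Control 1, which has the same pattern, was level with control 2. The other X-linked members, Rpl10, Rpl36a and Rpl39, had log2 fold changes of 0.0059, -0.032 and 0.013.

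Rps12, which encodes eS12, a protein of the beak of the small subunit, had the lowest fold change of the core. It was counted at 8752, 9065 and 8591 in controls and 8774, 7849 and 7518 in mutants. Mutant 1 lay among the controls, and mutants 2 and 3 below them. The log2 fold change was -0.13 (SE 0.062, limma adjusted p = 0.316).

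Rps10 encodes eS10, which lies at the mRNA entry side of the small subunit and is ubiquitinated when ribosomes collide. Its values were 4026, 4147 and 3937 in controls and 3874, 3902 and 3511 in mutants. The groups did not overlap, but mutants 1 and 2 lay close under control 3. The log2 fold change was -0.10 (SE 0.053, limma adjusted p = 0.365).

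Rps14, which encodes uS11 and is one of the genes of human 5q- syndrome, was counted at 13125, 13707 and 13905 in controls and 13493, 16703 and 12690.3 in mutants. Only mutant 2 stood out, at 0.32 above the core median of that library, and the groups overlapped. Its log2 fold change was 0.064 (SE 0.093, limma adjusted p = 0.775).

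Rps21, which encodes eS21, had 3735.5, 3729.5 and 3603 in controls and 3949, 4202 and 3476.5 in mutants. Mutants 1 and 2 were above the controls and mutant 3 below them. The gene stood 0.21 above the core median in mutant 2, where Rpl41 and Rps3 were also high, by 0.19 and 0.16.

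Rps19, the gene most often mutated in human Diamond-Blackfan anaemia, and Rps20 are known from mouse mutants with dark skin. Their log2 fold changes were -0.087 (limma adjusted p = 0.541) and -0.076 (limma adjusted p = 0.634), and became -0.030 and 0.0015 without mutant 3. Rps20 was counted at 7863, 8308 and 7743 in controls and 8207, 7751 and 6796 in mutants, where mutant 3 was the lowest library and the others lay within the control range. Rps19 ran from 5149 to 5657 in controls and from 4752 to 5536 in mutants, and its groups overlapped. Rps7, also known from a mouse mutant, had 0.041, and Rps27a, which encodes ubiquitin fused to eS31, had -0.080. Rps6, the substrate of the S6 kinases downstream of mTOR, had -0.028, with a 95% interval from -0.13 to 0.078. Rpsa, once described as a laminin receptor, had -0.032, and Rps3, which also has a role in DNA repair, 0.026. The abundant genes Rps15, Rps27 and Rps29 had -0.0068, -0.0006 and -0.033. None of the genes in this paragraph had groups that did not overlap.

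Among core genes of the large subunit, Rpl31 had the widest 95% interval. Rpl31 encodes eL31, a protein at the rim of the exit tunnel. It was counted at 5226, 5848 and 5472 in controls and 5786, 5028 and 4379 in mutants. Mutant 1 was next to the highest control, and mutant 3 was the lowest library, 0.24 under the core median there. The log2 fold change was -0.13 (SE 0.093, limma adjusted p = 0.521).

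In mutant 3, Rpl13a stood 0.16 below the core median and Rpl14 stood 0.14 above it.

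Rpl24 is the gene of the Belly spot and tail mutant mouse, which has eye defects. It had 738, 676 and 673 in controls and 766, 726 and 701 in mutants. Mutant 1 was the highest library, and mutants 2 and 3 lay within the control range. The log2 fold change was 0.072 (SE 0.068, limma adjusted p = 0.643). Rpl41, which encodes a very short basic peptide, had the highest log2 fold change of the large subunit, 0.075 (SE 0.067, limma adjusted p = 0.615).

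Rpl5 and Rpl11 bind Mdm2 together with 5S rRNA when ribosome assembly is disturbed. Their log2 fold changes were -0.032 and 0.0037, with 95% intervals from -0.15 to 0.080 and from -0.13 to 0.13. Rpl38, the gene of the Tail short mouse, had -0.075, and Rpl27a, the gene of the Sooty foot ataxia mouse, had -0.033. Rpl38 was counted at 1624, 1632 and 1656 in controls and at 1640.0, 1623.5 and 1412 in mutants. Its mutant 3 value was low and the other 5 libraries were almost level. Rpl10, which completes the large subunit late in assembly, had 0.0059.

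The stalk recruits the elongation factors. Rplp0, Rplp1 and Rplp2 had log2 fold changes of -0.029, 0.012 and 0.017, and their 95% intervals together ran from -0.15 to 0.14. Rplp0 was counted at 24831, 25219 and 24235.5 in controls and 24220.1, 25446 and 23186 in mutants. Its groups overlapped, with mutant 3 lowest.

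Several members serve as reference genes for quantitative PCR. Their log2 fold changes were -0.029 for Rplp0, -0.0062 for Rps18, -0.033 for Rps29, -0.053 for Rpl32, 0.012 for Rpl19 and -0.048 for Rpl13a. Coefficients of variation among the mutants ranged from 2.97% for Rpl32 to 12.3% for Rpl13a, and among the controls from 0.779% for Rpl19 to 4.86% for Rpl32.

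**Figure D4:**
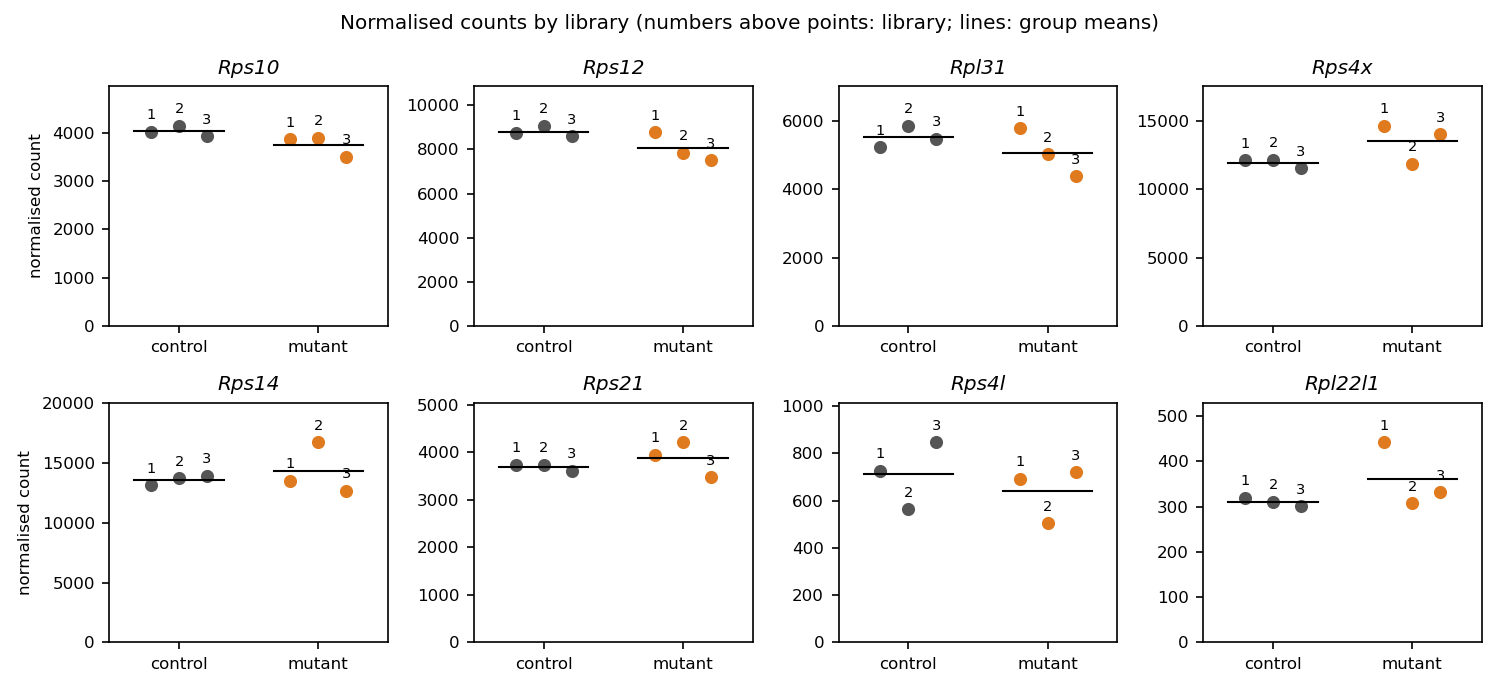
Normalised counts of 8 ribosomal protein genes in each library, with library numbers above the points and lines at group means. The groups of Rps10 do not overlap. Rps4x is high in mutants 1 and 3, Rps14 in mutant 2 and Rpl22l1 in mutant 1.

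The paralogs were much less abundant than their core partners, and the groups overlapped in the ratio of every pair. An exact permutation test over 6 pairs could call none of them, since 3 against 3 gives no p below 0.1. Rpl22l1, which binds RNA and can replace Rpl22 in the large subunit, amounted to 5.18% of Rpl22 in controls and 6.003% in mutants. Its counts were 319.5, 310.5 and 300.4 in controls and 442, 308 and 332 in mutants. Mutant 1 was far above the rest, mutant 3 somewhat above, and mutant 2 lay among the controls. The log2 ratio to Rpl22 was 0.20 higher in mutants (exact permutation p = 0.2, adjusted p = 0.4), and 0.093 without mutant 1.

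Rps4l, a single-exon copy of Rps4x on chromosome 6, was counted at 726, 563 and 846 in controls and 692, 504 and 720.1 in mutants. Its groups overlapped widely. It amounted to 5.98% of Rps4x in controls and 4.70% in mutants, a log2 ratio lower by 0.33 in the mutants (exact permutation p = 0.3, adjusted p = 0.45). Without control 3 the difference was -0.17. Of the 50-base stretches of Rps4l, 17.97% also occur in the transcript of 1 other gene, a pseudogene.

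Rpl3l, the form known from skeletal muscle and heart, was at a low level, with 8.5, 18.9 and 14.4 in controls and 16.9, 22.3 and 20.3 in mutants. It amounted to 0.180% of Rpl3 in controls and 0.258% in mutants, and its log2 ratio differed by 0.53 (exact permutation p = 0.2, adjusted p = 0.4). Control 1 was the lowest library, and without it the difference was 0.25. Rpl6l had 37.3, 31.5 and 39.8 in controls and 57.1, 43.5 and 37.6 in mutants, or 0.469% and 0.609% of Rpl6. Mutant 3 lay among the controls, and the log2 ratio differed by 0.37 (exact permutation p = 0.2, adjusted p = 0.4). Of its 50-base stretches, 76.4% also occur in transcripts of 11 other genes.

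Rps27l, known as a target of p53, had log2 fold change -0.0042, with 1291, 1168 and 1210.1 in controls and 1216, 1292 and 1151 in mutants. Rpl7l1, which takes part in ribosome assembly, had 0.0030, with 3087, 2993 and 2850.0 against 2924, 3095 and 2928. The groups of both genes overlapped fully. Their ratios to Rps27 and Rpl7 differed by -0.0036 and 0.0165 (exact permutation p = 0.8 for each). Rpl7l1 stood at 21.3% of Rpl7 in controls, the highest share of the 6 pairs before correction for length.

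Summed over the 83 members, ribosomal protein reads were 2.33% ± 0.051 of all reads in controls (SD, n = 3) and 2.32% ± 0.096 in mutants (SD, n = 3; exact permutation p = 1). The mutants had 2.401%, 2.34% and 2.21%, so mutants 1 and 3 were the highest and lowest of the 6 libraries. The ratio of large to small subunit reads was 1.323, 1.319 and 1.324 in controls and 1.32, 1.301 and 1.32 in mutants. Mutant 2 was lowest, and the groups overlapped (exact permutation p = 0.3).

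Of core genes that the name rule does not take, 3 were tested, 0 passed, and all 3 had a log2 fold change below 0. Fau, which encodes eS30 fused to a ubiquitin-like protein, and Rack1, a scaffold protein of the small subunit, had log2 fold changes of -0.15 (limma adjusted p = 0.369) and -0.020 (limma adjusted p = 0.897). Fau was counted at 5137, 5422 and 4995 in controls and 5083, 4878 and 4091 in mutants, and its groups overlapped.

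The other lists of the translation machinery are short, so at the 1.15% of all genes called a count of 0 or 1 is no result about a list. Of 22 elongation factors and other TOP genes 0 passed, with a median log2 fold change of -0.019. Eef1a1, which delivers aminoacyl-tRNA to the ribosome, had -0.0027, and Eef2, which drives translocation, -0.062. Of 23 initiation factors 0 passed, with a median of -0.038, and Eif4g2 and Eif4a1, their most abundant members, had -0.038 and -0.082. Of 48 ribosome biogenesis factors 0 passed. Their median was -0.058, and 42 of the 48 values lay below 0, against 52 of the 77 core genes and 8350 of the 16064 genes tested. Ncl (nucleolin), the most abundant, had -0.058, and Ubtf, a factor of RNA polymerase I, -0.101.

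The median of the biogenesis factors in the 3 mutants was -0.052, -0.065 and -0.048 against the control mean, so it did not have the core's low value in mutant 3. In controls it was 0.046, 0.011 and -0.058, so control 3 was at the level of the mutants. The nuclear genes of the respiratory chain had a median of 0.065, with 65 of 75 above 0 and 0 called (1.15% of all genes), and their most abundant members Atp5b and Atp5a1, subunits of ATP synthase, had 0.037 and 0.020. The 75 mitochondrial ribosomal protein genes had a median of 0.021, with 0 called, and the most abundant, Mrpl49 and Mrps5, had 0.072 and -0.067.

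Among 22 regulators of ribosome synthesis 1 passed, beside 1.15% of all genes. Mycn, a Myc family gene of neural progenitors, fell from 5915, 5365 and 5263 in controls to 4529, 4187 and 4424 in mutants. All mutants lay below all controls, with a log2 fold change of -0.33 (SE 0.057, limma adjusted p = 0.0355). The call was lost without any one of the 3 controls or mutant 2 or 3, where the limma adjusted p ran from 0.058 to 0.139, and it held without mutant 1. It was also lost with no filter on low values (limma adjusted p = 0.103). Akt1 and Eif4ebp2, the most abundant of the list, had -0.21 (limma adjusted p = 0.0754) and -0.16 (limma adjusted p = 0.186). Of 17 genes of the p53 pathway 0 passed, again beside 1.15% of all genes, with a median of -0.12. Trp53 itself had -0.19 (limma adjusted p = 0.147) and Ei24 -0.022.

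**Figure D5:**
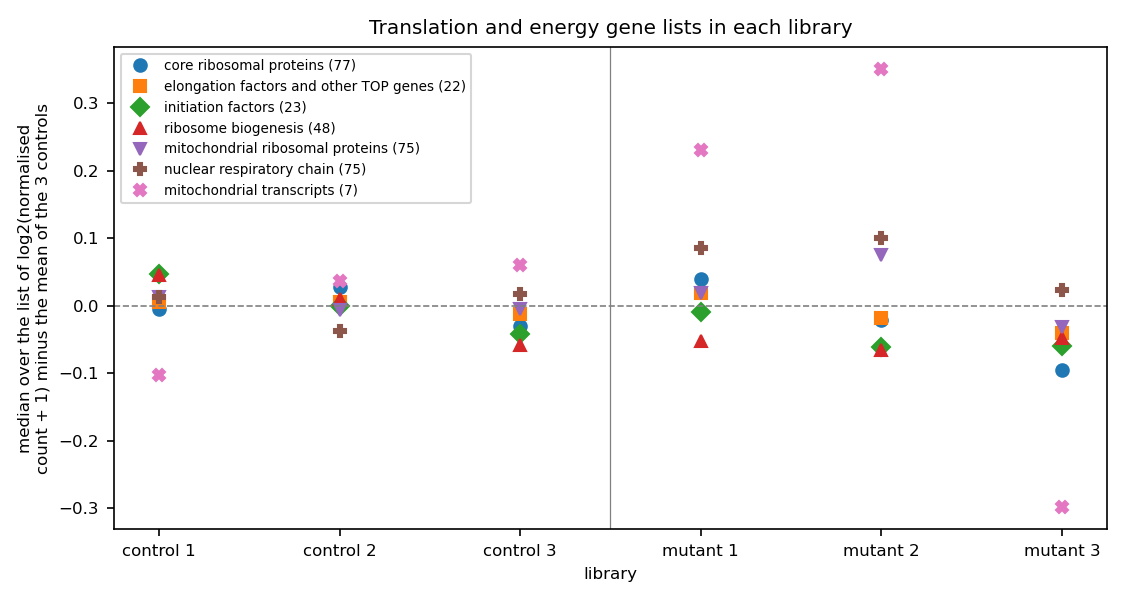
Median over each list of log2(normalised count + 1) minus the mean of the 3 controls, by library. The core ribosomal proteins run from 0.039 in mutant 1 to -0.095 in mutant 3, the biogenesis factors lie between -0.065 and -0.048 in all 3 mutants, and the 7 mitochondrial transcripts range from 0.35 in mutant 2 to -0.30 in mutant 3.

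Ribosomal protein genes have many processed copies in the mouse genome, and this limits what a read can be assigned to. Of the 50-base stretches of each core transcript, a median of 55.5% also occurred in a transcript of at least one other gene, mostly a pseudogene, and 76 of 77 genes had some. For 75 mitochondrial ribosomal protein genes the median was 0%. Rpl7a shared stretches with 120 other genes. Rpl24, lowest per kb, shared 81.7% of its stretches, Rps10 92.4%, and Rps27, next to the highest per kb, 98.65%. Over the core genes the Spearman correlation of the shared percentage with the level per kb was -0.011. The 47 core genes that shared over 50% had a median of 10321 normalised counts per kb and a median log2 fold change of -0.017. The 30 that shared less had 9361 per kb and -0.033. How reads with several matches were treated is unknown here.

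The core genes were spread over 19 chromosomes, with 14 of them on chromosome 7. That is 18.2% of the core, against 7.78% of all genes tested. The 14 genes on this chromosome include Rps9, Rpl28 and Rplp2. Rps9 had a log2 fold change of 0.0030 and Rpl28 of -0.039.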

How the data were processed

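The authors deposited a signal on the scale of normalised counts, with 1 decimal, for 6 libraries named per the file headers, and 0 other value columns were present. Tools named per the submitters' processing notes are cutadapt, STAR 2.4.2a, HTSeq and DESeq2, with the build GRCm38. Nothing read here states the strand setting or the handling of multiply matching reads. Overlapping or antisense genes therefore cannot be told apart. In every library 100% of values lay within 0.06 of whole multiples of 1 step (0.846 to 1.06 normalised counts per read), so whole reads were recovered.

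Groups were compared with limma 3.58.1 under R 4.3.3, using a variance trend on log2(normalised count + 1), over 16064 genes with a mean of at least 10, 2-sided, with Benjamini-Hochberg adjustment and calls under 0.05. Fold changes on this scale understate low genes. edgeR 4.0.16 and DESeq2 1.42.0 on recovered reads called 180 and 874 genes. Shares and paralog ratios were compared by exact 2-sided permutation over samples, the ratios adjusted over 6 pairs. Alternatives changed the pseudocount (0.1, 5), the filter (none, 50), scaling, weights, a replicate block and each library.

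Members and lists were chosen with earlier results of these data known. Named genes were Zeb2, the 6 core members highest and 6 lowest in fold change, the 6 with the smallest p, the 5 highest and 5 lowest per kb, stalk genes, Rpsa, paralogs with partners, members with known roles or mutants, common reference genes, and of each other list called members and the 2 most abundant. Further genes were named after their values were seen (Rpl14, Rpl36a, Fau, Rack1, Rps9, Rpl28, Rpl7a). A gene taken by the rule is not reported here. The 1.2-fold and 1.3-fold limits were set after intervals were seen. Lengths are the shortest principal transcript with a consensus coding sequence in GENCODE M21, and sequences are RefSeq on GRCm38.p6.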

Additional observations from a re-analysis of the deposited data

How the results depend on the processing

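In each of the 18 alternatives 0 ribosomal protein genes were called, and the smallest adjusted p of any member ran from 0.0791 (without mutant 1) to 0.508 (without control 1). The median log2 fold change of the members, -0.023, was -0.089 without mutants 1 and 2. It ran from -0.050 to 0.016 when 1 library was left out, positive only without mutant 3, and was 0.0053 after quantile normalisation, where the median of all genes was -0.011. Of 754 values of 42 named members under the alternatives, 725 moved by less than the spread between libraries and 29 by more. Leaving out 1 library cannot move a fold change beyond the spread as it was defined. The replicate block and the filters leave the fold change as it was. These counts therefore say little about robustness. The difference in the share of ribosomal protein reads, -0.0092 percentage points, ran from -0.051 to 0.043 when 1 library was left out.

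The number of all genes called, 184, was 26 with no filter on low values, 874 with DESeq2, and 27 to 600 when 1 library was left out. The cause was not tested. The log2 fold change of Zeb2, -0.31, passed the test at -0.30 with DESeq2, and ran from -0.40 to -0.20 when 1 library was left out, passing without mutant 1.

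Deviations of samples with the same replicate number had correlations over genes of 0.016, 0.149 and -0.063. For samples with different numbers they ran from -0.241 to 0.22. No pairing by number was seen, but with 3 libraries per group these values cannot exclude it. With a replicate block the median of the members was -0.023, 0 members and 248 of all genes were called. Precision is limited by 3 libraries per group, and by reads shared with pseudogenes.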
